A study of Mus musculus with 8 samples.

Results

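The mouse genes described here encode 10 transcription factors of epithelia. They are the Ets factors Elf1, Elf3, Elf5 and Ehf, the grainyhead-like factors Grhl1, Grhl2, Grhl3 and Tfcp2l1, and the zinc finger factors Ovol1 and Ovol2. They were chosen by name from the 21887 protein-coding genes of the RefSeq gene table, and all 10 were found in it. For each, the gene with 50 kb on either side was searched for peaks of histone H3 acetylated at lysine 27 (H3K27ac), a mark of active promoters and enhancers. The peaks came from chromatin immunoprecipitation followed by sequencing in mpkCCD cells (clone 11), a line of mouse cortical collecting duct cells that is 1 clone, grown to confluence on permeable supports. One group received 0.1 nM dDAVP, a vasopressin analogue selective for the V2 receptor, for 24 h, and the other received its vehicle for 24 h. All cells had first been kept for 24 h in medium without serum or hormones. Each treatment was sampled once in each of 2 experiments, which gave 4 peak lists, and the study asked how vasopressin alters acetylation.

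Ets proteins bind DNA through a winged helix domain that reads a GGAA core. Elf3, Ehf and Elf5 belong to a subfamily found mainly in epithelia, whereas Elf1 is found in most tissues. Grainyhead-like proteins bind as dimers and maintain junctions and barriers. In mouse collecting duct, Grhl2 is known to sustain Cldn4, Rab25 and Ovol2, and Tfcp2l1 is known to direct the formation of principal and intercalated cells. Ovol1 and Ovol2 repress mesenchymal genes such as Zeb1 and so hold cells in the epithelial state.

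The peak lists differed in size. The dDAVP lists held 37235 peaks over 99.0 Mb in experiment 1 and 20124 peaks over 33.5 Mb in experiment 2, and the vehicle lists held 39745 peaks over 104 Mb and 29597 peaks over 56.9 Mb. The number of immunoprecipitated tags kept was 27923780 and 31676748 with dDAVP and 32705755 and 31283282 with vehicle. The order of the lists by size is not the order by these numbers. Before filtering to 1 tag per position, there were 31423025 and 38815488 tags with dDAVP and 35420890 and 36133002 with vehicle. The smallest list, dDAVP of experiment 2, thus lost the most tags to the filter. It also had the fewest input tags kept, 30753752. Whether this bears on list size was not tested. A promoter was taken as 1 kb either side of an annotated start, or of both gene ends for Ehf, Grhl2 and Ovol1, and a list called it where a peak overlapped it. By this measure the promoters of 6 of 6 principal cell markers (Aqp2 and Avpr2 among them) and 4 of 4 simple epithelium markers were called in all 4 lists. The same held for 1 of 4 intercalated cell markers (Atp6v1b1) and 1 of 4 proximal tubule markers (Lrp2). The counts were 0 of 3 for thick limb and distal convoluted tubule, 0 of 3 for fibroblasts and 0 of 4 for leukocytes and endothelium. Over all protein-coding genes the share was 45.9%. Among the markers short of all 4 lists, Cd68 lacked only dDAVP of experiment 2. Col1a1 was called in both lists of experiment 1, Slc12a3 in dDAVP of experiment 1 and the rest in no list.

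The promoters of 7 of the 10 genes carried a peak in all 4 lists, beside 45.9% of all protein-coding genes. They were Elf1, Elf3, Ehf, Grhl1, Grhl2, Tfcp2l1 and Ovol1. Among genes with an annotated start, 4 of 7 were called in all 4 lists, beside 46.9% of such genes. All 3 genes judged by their ends were called, beside 41.9%. Counted by list, dDAVP called 9 of the 10 promoters in experiment 1 (53.2% of all genes) and 7 in experiment 2 (46.0%), and vehicle called 8 (53.8%) and 8 (51.0%). The 3 genes outside the common pattern differed from each other. The Ovol2 promoter was called in every list except dDAVP of experiment 2, a pattern shared by 949 genes (4.34%). The Elf5 promoter was called only in dDAVP of experiment 1, as were those of 141 genes (0.644%). The Grhl3 promoter was called in no list, like that of 45.2% of genes. None of the 10 promoters was called with dDAVP in both experiments and never with vehicle, a pattern that 0.0% of all genes had. The reverse, calls with vehicle in both experiments and never with dDAVP, was also absent among the 10 genes and was seen at 0.352% of all genes.

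Promoter sequences for 7 of the 10 genes were in the RefSeq table (build GRCm38.p6, of which mm10 is the reference version), each running from 250 bases before a start to 50 bases after it. Those of 4 genes are printed, and they cover promoters called in all 4 lists, in 3 lists and in none. Their CpG counts run from 3 to 43. The starts of Elf5, of which 1 was called in 1 list, and the second start of Grhl1, with 0 CpG, are not printed. CpG dinucleotides are in capitals, and each sequence runs 5′ to 3′ on the strand of its gene. The first start of Elf1 lies at chr14:79480944-79481243 (plus strand) and its second at chr14:79515424-79515723 (plus strand), and both were called in all 4 lists. The Elf3 promoter, also called in all 4, is chr1:135258423-135258722 (minus strand). The Grhl3 promoter, called in none, is chr4:135573583-135573882 (minus strand). The Ovol2 promoter, called in 3 lists, is chr2:144331313-144331612 (minus strand).
Elf1 first start: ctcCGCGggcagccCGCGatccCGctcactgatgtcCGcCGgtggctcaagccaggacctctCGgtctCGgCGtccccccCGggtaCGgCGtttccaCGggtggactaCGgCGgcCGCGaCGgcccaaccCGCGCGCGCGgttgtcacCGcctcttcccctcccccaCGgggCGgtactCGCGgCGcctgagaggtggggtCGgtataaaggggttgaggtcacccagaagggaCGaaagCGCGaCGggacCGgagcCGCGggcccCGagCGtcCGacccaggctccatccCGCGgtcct
Elf1 second start: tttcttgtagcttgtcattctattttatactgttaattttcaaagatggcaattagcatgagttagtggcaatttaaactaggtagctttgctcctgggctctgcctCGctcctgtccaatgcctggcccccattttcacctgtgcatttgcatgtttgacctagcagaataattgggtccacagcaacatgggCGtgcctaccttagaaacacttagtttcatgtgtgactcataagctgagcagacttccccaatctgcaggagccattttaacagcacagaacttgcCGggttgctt
Elf3: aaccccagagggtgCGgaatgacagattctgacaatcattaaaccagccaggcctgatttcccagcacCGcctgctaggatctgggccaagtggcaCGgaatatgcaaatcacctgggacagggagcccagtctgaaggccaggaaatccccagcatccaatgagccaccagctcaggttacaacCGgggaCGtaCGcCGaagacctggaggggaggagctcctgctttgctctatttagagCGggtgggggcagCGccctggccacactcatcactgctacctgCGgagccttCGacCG
Grhl3: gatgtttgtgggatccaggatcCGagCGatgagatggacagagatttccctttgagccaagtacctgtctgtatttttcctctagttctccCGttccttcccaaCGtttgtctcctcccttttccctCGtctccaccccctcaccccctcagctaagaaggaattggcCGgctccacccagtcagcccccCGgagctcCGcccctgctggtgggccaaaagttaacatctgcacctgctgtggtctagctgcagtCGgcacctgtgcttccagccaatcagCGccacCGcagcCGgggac
Ovol2: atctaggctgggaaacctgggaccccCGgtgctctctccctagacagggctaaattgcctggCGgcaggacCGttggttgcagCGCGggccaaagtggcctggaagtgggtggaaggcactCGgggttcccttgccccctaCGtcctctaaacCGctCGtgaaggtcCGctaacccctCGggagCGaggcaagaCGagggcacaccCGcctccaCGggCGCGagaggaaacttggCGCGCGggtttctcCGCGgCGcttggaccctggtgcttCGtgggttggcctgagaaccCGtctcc

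The printed sequences hold 43 CpG at the first start of Elf1, 3 at its second start, 12 in Elf3, 12 in Grhl3 and 25 in Ovol2. Elf3 and Grhl3 thus had the same number of CpG and opposite call patterns. Over all 21263 promoter sequences, the median was 22 CpG for those called in all 4 lists, 10 for those called in 1 to 3 lists and 4 for those called in none. The second start of Elf1 was called although it was poor in CpG. Of the 5085 promoters with 3 CpG or fewer, 245 (4.82%) were called in all 4 lists. Among the promoters not printed, that of Tfcp2l1 held 21 CpG, the first start of Grhl1 35 and its second start 0, and the starts of Elf5 3 and 10.

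Motifs of the factors themselves, and the cAMP response element, were searched on both strands of the 10 available promoter sequences of the 7 genes. The only match was CNGGAAGT, an Ets pattern, in Ovol2, 151 bases before the start, in the stretch cctggaagt. This pattern was found in 10.6% of all promoter sequences. The grainyhead pattern AACNNGTT (4.06% of all promoters), which also takes in every match of its fuller form AACCGGTT (0.179%), had no match in the 10 sequences. Neither had the Tfcp2l1 pattern, 2 copies of CCAG with 6 bases between them (3.48%), CCGTTA of Ovol proteins (2.96%) or TGACGTCA, the cAMP response element (2.23%).

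**Figure D1:**
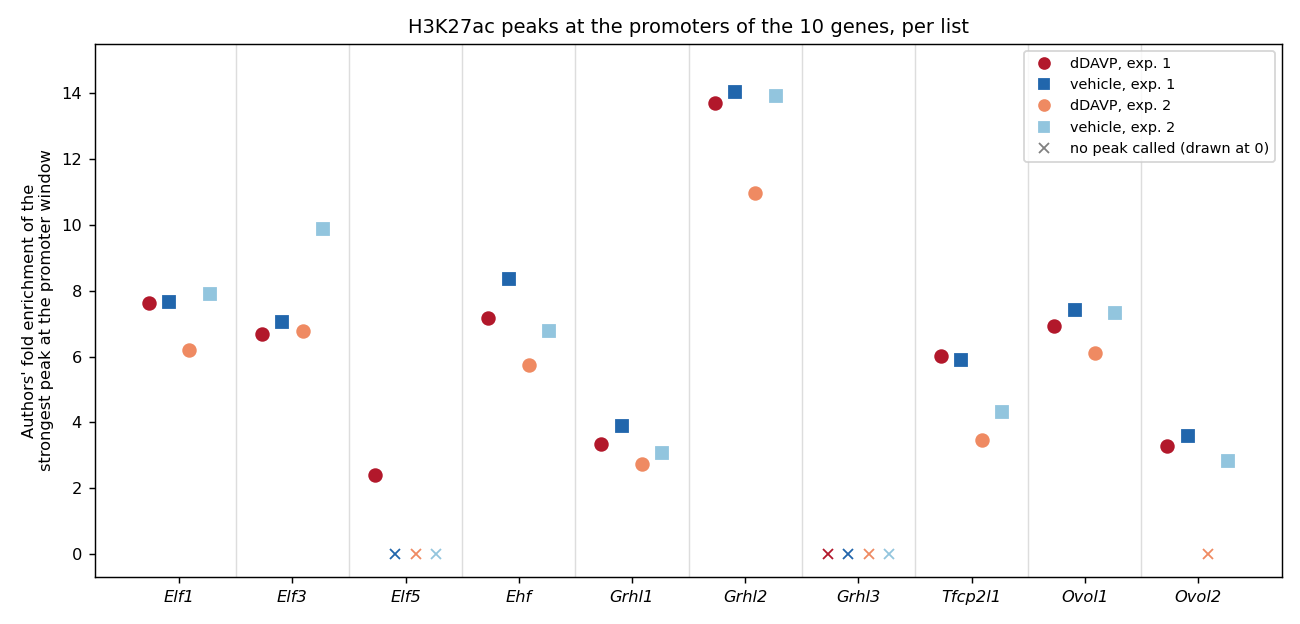
Fold enrichment at the promoters of the 10 genes, as the authors' peak caller gave it, for each of the 4 lists (dDAVP left of vehicle within an experiment), taking the strongest peak at each promoter, with a cross at 0 where no peak was called. Grhl2 stands highest in every list, at 11.0 to 14.1, and Grhl3 has crosses only.

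Elf1, a broadly expressed Ets activator (gene ID 13709, chr14:79481174-79582491), was acetylated at both starts and within the gene. At the first start the fold enrichment over local background, the authors' own value for a peak, was 7.62 and 6.21 in the dDAVP lists of experiments 1 and 2, and 7.66 and 7.89 in the vehicle lists. These values lay between the 86.2 and 93.0 percentiles of their own lists. Fold values rank peaks within a list and are not compared between lists. The region there, 10060 bp wide, also covered the promoter of the neighbouring gene Wbp4. At the second start the fold was 5.97 and 4.25 with dDAVP, and 4.64 and 6.93 with vehicle. Inside the gene, a region at chr14:79521208-79530149 was called in every list, with 8089 and 2589 bp covered in dDAVP lists and 8942 and 4320 bp in vehicle lists.

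Elf3, an Ets factor of simple epithelia that responds to inflammatory signals (gene ID 13710, chr1:135253574-135258472), is a short gene. It lay whole within 1 acetylated region merged across the lists. In experiment 1 a single peak of 22406 bp with dDAVP and 20809 bp with vehicle spanned the gene. In experiment 2 the promoter peak was 6908 bp wide with dDAVP and 7940 bp with vehicle, and it covered only part of the gene. The promoter fold was 6.68 and 6.78 with dDAVP, and 7.03 and 9.89 with vehicle. A region outside the gene at chr1:135223719-135230650 was also called in all lists, with a fold of 6.79 and 5.34 in the dDAVP lists and 6.46 and 5.70 in the vehicle lists. Elf3 had the highest share of its window covered of the 10 genes, 29.7% as a mean over the lists, which was at the 97.5 percentile of all genes.

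Ehf and Elf5 lie in the same stretch of chromosome 2 and differed in acetylation. Ehf (gene ID 13661, chr2:103263431-103303275), an Ets factor of ductal and glandular epithelia, had a promoter peak at its upper end of 35339 and 5870 bp with dDAVP, and 32555 and 23472 bp with vehicle. The fold of this peak was 7.17 and 5.74 with dDAVP, and 8.37 and 6.79 with vehicle. The merged region was 36718 bp wide, and 0.127% of all regions were wider. It held 3 peaks in each list of experiment 2, so the widths above are not its coverage. Within the region, 35339 and 20410 bp were covered with dDAVP, and 35371 and 25192 bp with vehicle. At its lower end a peak of 1625 bp (chr2:103262903-103264527), at the 22.6 percentile of fold in its list, was called with dDAVP in experiment 1 and in no other list. A region outside the gene, chr2:103322330-103327524, was called in all lists, with 2985 and 1219 bp covered with dDAVP and 5195 and 2070 bp with vehicle. Elf5 (gene ID 13711, chr2:103412098-103450989), known for its part in mammary and placental development, had 3132 and 945 bp covered in its window with dDAVP, and 1547 and 1153 bp with vehicle. All of this but 1636 bp in dDAVP of experiment 1 lay at the promoter of a neighbour, Cat. The Elf5 promoter peak in that list was 1035 bp wide with a fold of 2.39, at the 12.5 percentile, and ended upstream of the start. Elf5 had no region of its own in any other list.

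Grhl2, the grainyhead factor of collecting duct and other simple epithelia (gene ID 252973, chr15:37232821-37363569), had the strongest promoter of the 10 genes. The peak at its lower end had a fold of 13.7 and 11.0 in the dDAVP lists, and 14.1 and 13.9 in the vehicle lists. Only 31 and 110 peaks had a higher fold in the dDAVP lists, and 36 and 137 in the vehicle lists. The window at this end was covered in full in all 4 lists, and that at the upper end had no covered base in any. A wide region lay outside the gene at chr15:37189376-37214154, with 20182 and 11192 bp covered with dDAVP and 24779 and 16732 bp with vehicle. Its width of 24779 bp was exceeded by 0.449% of all regions. A further region inside the gene, chr15:37309257-37329366, had 19047 bp covered with dDAVP in experiment 1 and 0 in experiment 2, against 18159 and 2665 bp with vehicle.

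Grhl1 and Grhl3, relatives known from skin, where Grhl1 acts on desmosomes and Grhl3 on barrier formation and closure of the neural tube, carried less of the mark. The Grhl1 promoter (gene ID 195733, chr12:24572232-24617391) had 1725 and 255 of 2001 bp covered with dDAVP, and 2001 and 1519 bp with vehicle. Its fold of 3.34 and 2.74 with dDAVP, and 3.88 and 3.08 with vehicle, lay between the 5.53 and 64.0 percentiles. The second annotated start of Grhl1 was called in no list. A region inside Grhl1, chr12:24590349-24595337, was called in all lists, with 4989 and 995 bp covered with dDAVP and 3361 and 1754 bp with vehicle. The widest region in the Grhl1 window, chr12:24649746-24659258 (9513 bp), lay at the promoter of a neighbour, Klf11, with 7543 and 1942 bp covered with dDAVP and 8260 and 2700 bp with vehicle. Grhl3 (gene ID 230824, chr4:135541887-135573632) had no promoter peak but an acetylated region inside the gene, chr4:135546037-135549508. It was called in all 4 lists, with a fold of 4.18 and 3.78 with dDAVP, and 3.39 and 3.50 with vehicle.

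Tfcp2l1 (gene ID 81879, chr1:118627923-118685168) combined a called promoter with a wide region inside the gene. Its promoter fold was 6.00 and 3.46 with dDAVP, and 5.90 and 4.32 with vehicle. The internal region, chr1:118641568-118674571, was 33004 bp wide after merging across the lists, and 0.19% of all merged regions were wider. Its widest single peak was 12961 and 3578 bp with dDAVP, and 21002 and 4900 bp with vehicle. Within the region, 28880 and 5703 bp were covered with dDAVP, and 30591 and 11531 bp with vehicle. The dDAVP value was the lower in both experiments, and the gap between the experiments exceeded the gap between the treatments.

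The Ovol genes differed at their promoters. Ovol1 (gene ID 18426, chr19:5549137-5560575) had a strong promoter at its upper end, with a fold of 6.94 and 6.09 with dDAVP, and 7.41 and 7.31 with vehicle. The merged region was 17313 bp wide and also held the promoter of Ap5b1. At its lower end a weak region, chr19:5548136-5549816, was called in experiment 1 alone, with a fold of 2.29 with dDAVP and 2.23 with vehicle. A region outside the gene, chr19:5528305-5532851, had 3410 and 1151 bp covered with dDAVP, and 4547 and 2271 bp with vehicle. Ovol2 (gene ID 107586, chr2:144305175-144332080) had a promoter fold of 3.29 with dDAVP in experiment 1 and no peak in experiment 2, against 3.58 and 2.84 with vehicle. Both Ovol2 regions called in all 4 lists lay at promoters of other genes, Mgme1 with Snx5 (chr2:144265534-144273353, the widest at 7820 bp) and Kat14 with Pet117. Peaks cannot be assigned to 1 gene where promoters lie this close.

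**Figure D2:**
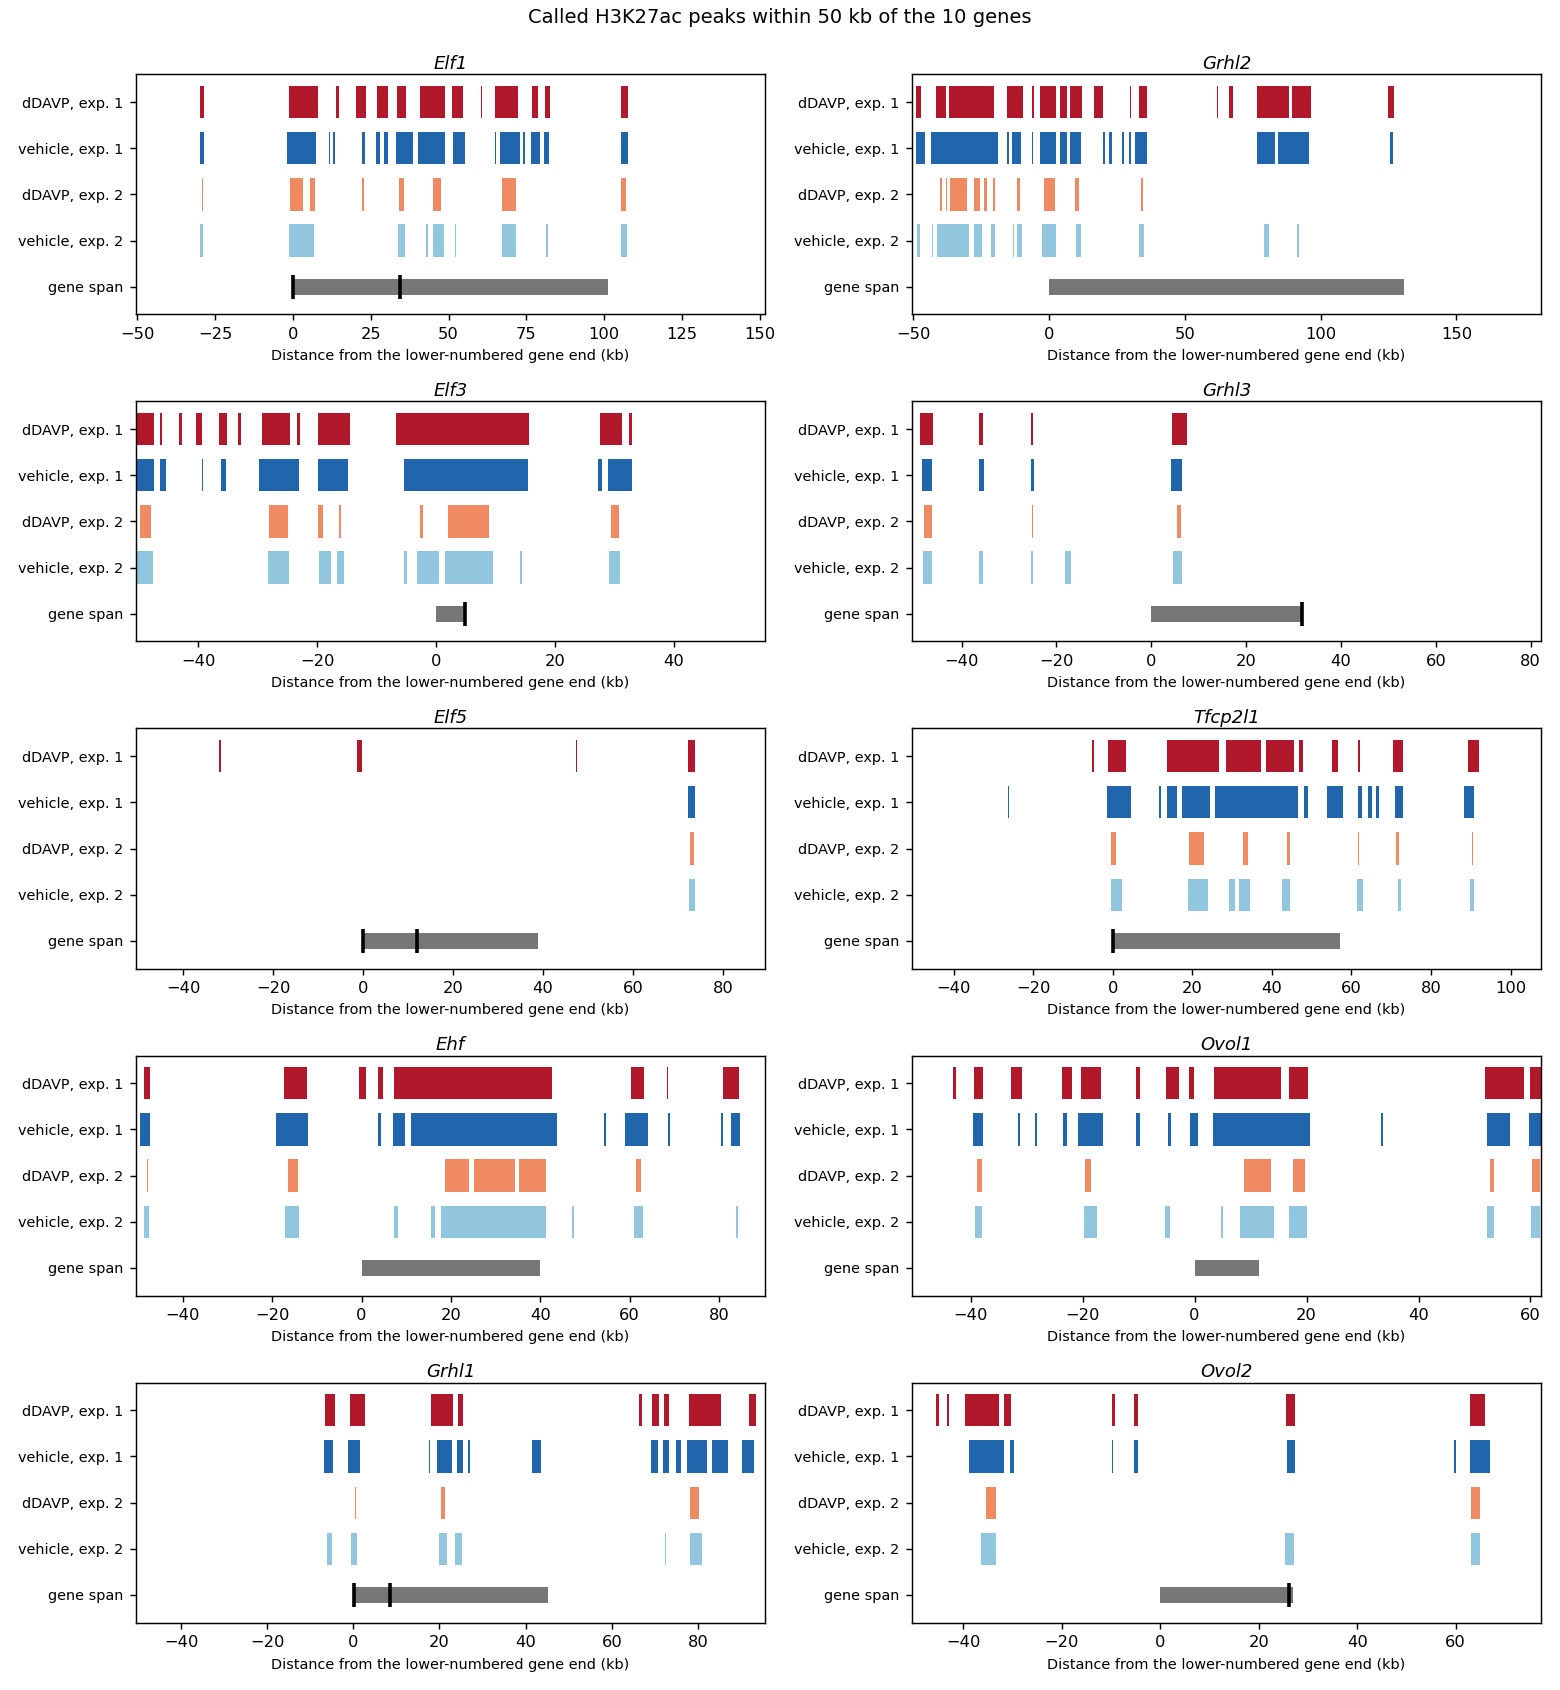
Peaks of the 4 lists in the window of each gene (dDAVP above vehicle within an experiment), with the horizontal axis in kb from the lower end of the gene, the gene span as a grey bar and annotated starts as black ticks. Elf3 and Ehf are covered over much of their windows and Elf5 and Grhl3 over little.

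Beyond the promoters, 97 regions lay in the windows, counting peaks of the 4 lists merged where they overlapped or touched. Of these, 31 were called in all 4 lists (32.0%), beside 36.2% of the 45705 regions of the whole genome. The genome-wide shares given here include regions at promoters, whereas the 97 leave out those at each gene's own promoter. Genome-wide shares without promoter regions were not counted. A further 22 were called in both lists of experiment 1 and neither of experiment 2 (22.7%, beside 15.96%). None was called with dDAVP in both experiments and never with vehicle, a class that held 0.0635% of all regions. None showed the reverse pattern either, a class of 2.51% of all regions. The remainder were 11 regions in 3 lists (11.3%, beside 13.4%) and 33 regions in 1 list (34.0%, beside 31.2%). Of the 11, 10 lacked only dDAVP of experiment 2 and 1 lacked only vehicle of experiment 2. The genome-wide share of regions lacking only dDAVP of experiment 2, the smallest list, was not counted. By place, 35 lay in the gene, 51 outside it and 11 at the promoter of another gene, and all 11 of the last kind were called in every list.

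**Figure D3:**
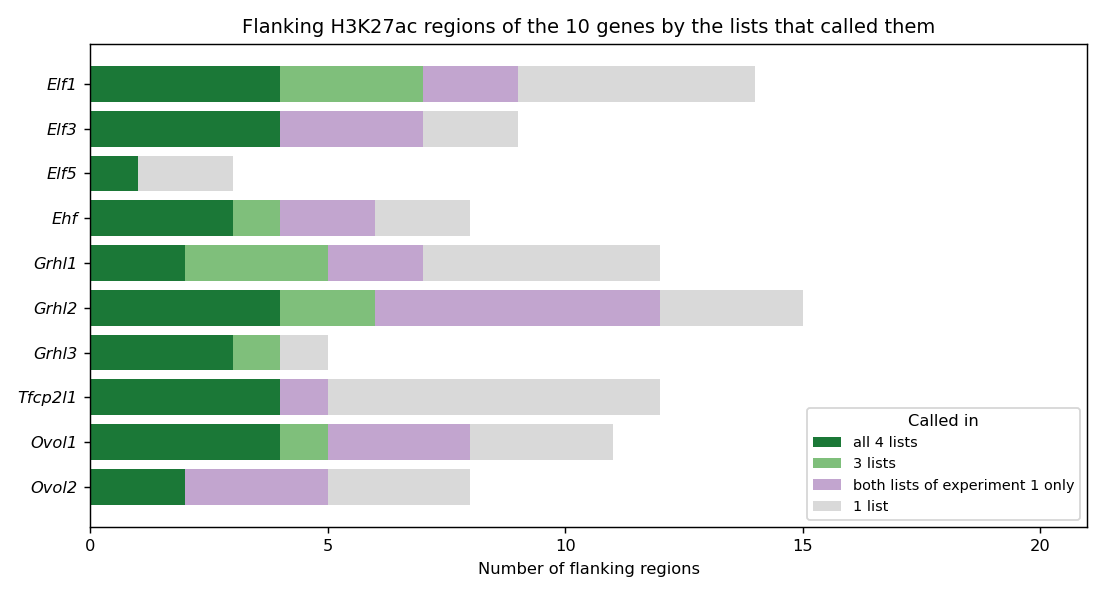
Number of flanking regions of each gene by the lists that called them. No gene has a region called in both lists of 1 treatment and neither of the other, and Elf5 and Ovol2 owe their regions in all 4 lists to promoters of neighbouring genes.

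As a share of the window, averaged over the 4 lists, coverage followed the order Elf3, Ehf (28.9%), Ovol1 (22.2%), Grhl2 (21.2%), Tfcp2l1 (18.7%), Elf1 (16.5%), Grhl1 (11.1%), Ovol2 (8.22%), Grhl3 (4.3%) and Elf5 (1.22%), where the median of all genes was 3.5%. These shares include regions at promoters of other genes. With those left out, an alternative chosen after seeing the data, Ovol2 had 2.27%, Grhl3 2.65%, Elf5 0.294% and Grhl1 7.59%, Elf1, Elf3 and Ovol1 had 15.1%, 26.7% and 16.7%, and Ehf, Grhl2 and Tfcp2l1 did not change because they have no such region. Regions at a gene's own promoter stayed in where they also covered another promoter, that of Wbp4 for Elf1 and of Ap5b1 for Ovol1. The median of all genes was not recomputed without regions at promoters of other genes. Neighbours in this order were not tested against each other.

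The covered length of each window gave the comparison of dDAVP with vehicle within an experiment. For Grhl2, 72468 and 19061 bp were covered with dDAVP in experiments 1 and 2, and 72631 and 31836 bp with vehicle. For Ehf the lengths were 51347 and 23980 bp with dDAVP, and 53888 and 32604 bp with vehicle. For Tfcp2l1 they were 42364 and 8567 bp with dDAVP, and 49412 and 17440 bp with vehicle. In these genes each dDAVP value was below that of vehicle in its own experiment, and the treatments overlapped when the experiments were set together. Elf1 had 45828 and 17034 bp with dDAVP, and 47436 and 22605 bp with vehicle. Grhl1 had 25000 and 3192 bp with dDAVP, and 27355 and 8951 bp with vehicle. Away from the Klf11 promoter, Grhl1 had 17457 and 1250 bp with dDAVP, and 19095 and 6251 bp with vehicle. These 5 genes were the ones with less coverage with dDAVP in both experiments, beside 54.5% of the 15425 genes covered in all 4 lists.

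The other 5 genes had more coverage with dDAVP in experiment 1 and less in experiment 2, as did 43.2% of those genes. Elf3 had 43727 and 15299 bp with dDAVP, and 42289 and 23294 bp with vehicle. Ovol1 had 37485 and 11130 bp with dDAVP, and 34165 and 16342 bp with vehicle. Their direction differed between the experiments. Ovol2 had 15802 and 4156 bp with dDAVP, and 14907 and 6887 bp with vehicle. Grhl3 had 7244 and 2802 bp with dDAVP, and 6218 and 6406 bp with vehicle. Elf5, whose values are given above, completed this set. None of the 10 genes had more coverage with dDAVP in both experiments, beside 1.56% of all covered genes.

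The ratio of covered length, dDAVP over vehicle, ranged from 0.857 (Tfcp2l1) to 2.02 (Elf5) in experiment 1 and from 0.357 (Grhl1) to 0.82 (Elf5) in experiment 2. Without regions at promoters of other genes, the experiment 2 ratio was 0.2 for Grhl1 and 0.249 for Grhl3, Ovol2 had 0 bp with dDAVP against 1869 bp with vehicle, and Elf5 had 0 bp in both lists of that experiment. The medians of the 10 genes were 1.02 and 0.63, beside 0.981 and 0.667 over all covered genes. In experiment 2 the whole dDAVP list covered less of the genome than its vehicle list, as given above. The mean difference, dDAVP minus vehicle, was -7960.5 ± 1290 bp for Tfcp2l1 and -6469 ± 8918 bp for Grhl2 (SD, n = 2 pairs). Over all 10 genes together it was -33401.5 bp. Exact permutation tests over the 4 lists, two-sided and not paired by experiment, gave p between 0.667 and 1 for each gene. The smallest p that 2 lists against 2 can give is 0.333. These exact tests could therefore not pass the usual threshold at any of the 10 genes, whatever the values. The labels do not say how separate the experiments were, so these p-values measure the spread between these samples only. With lists cut to equal numbers of peaks within each experiment, 3 of the 10 genes had less coverage with dDAVP in both experiments. With equal covered bases 2 did, and with equal numbers over all lists 6 did. These counts were taken for the 10 genes alone, without the share over all genes under the same cuts.

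**Figure D4:**
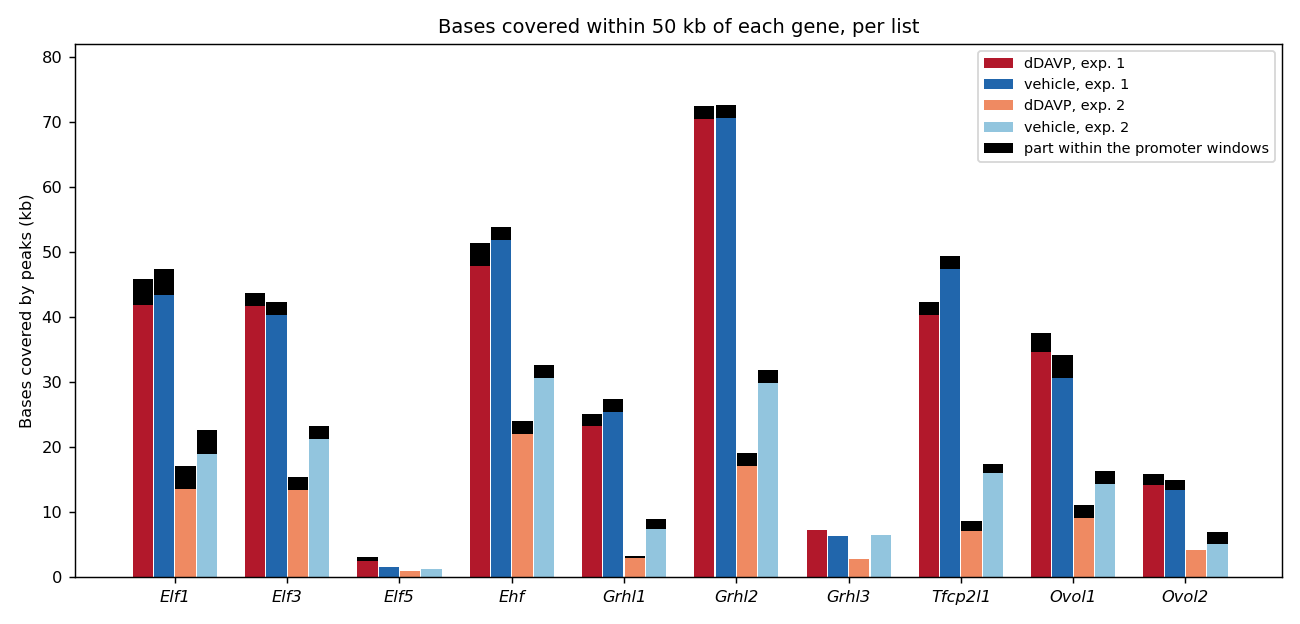
Covered length of each gene's window in kb, with 1 bar per list (dDAVP left of vehicle within an experiment) and the part within promoter windows in black. Both lists of experiment 1 lie above both lists of experiment 2 for each gene except Grhl3, where vehicle of experiment 2 (6406 bp) lies above vehicle of experiment 1 (6218 bp).

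**Figure D5:**
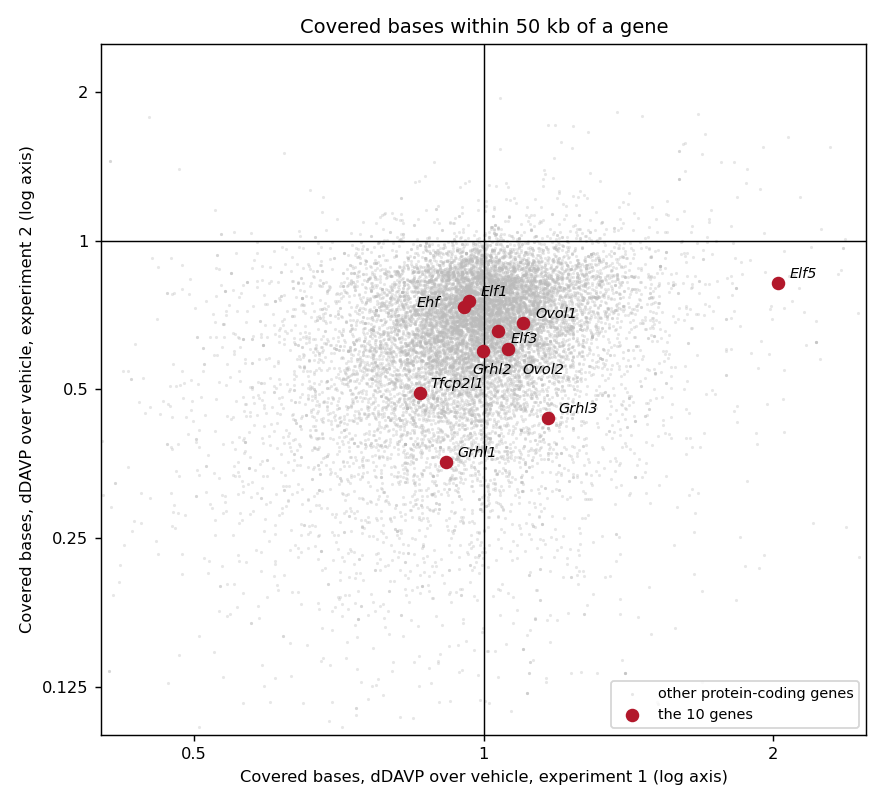
Ratio of covered length, dDAVP over vehicle, in experiment 1 (horizontal) and experiment 2 (vertical), on log axes, for the 10 genes over all genes covered in all 4 lists, of which 135 lie outside the axes. The 10 genes lie among the other genes and all have a ratio below 1 in experiment 2, as do most covered genes. Of all covered genes, 54.5% had a ratio below 1 in both experiments. A further 43.2% had a ratio above 1 in experiment 1 and below 1 in experiment 2.

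Related genes were described by the same measure. Of 21 other Ets genes, 9 had a promoter called in all 4 lists, among them Ets2, Elk3 and Gabpa, and 8 in none, among them Erg and Spdef, beside 45.9% and 45.2% of all genes. The share of 42.9% for the other Ets genes was near that of all genes. Erg and Spdef had no covered base in their windows in any list. Ets1, whose gene ends were called in no list, had 36993 and 10075 bp covered in its window with dDAVP, and 39544 and 29212 bp with vehicle. Of the relatives of the grainyhead and Ovol genes, Tfcp2 and Ubp1 were called in all 4 lists and Ovol3 in none. All 26 promoters of epithelial genes known as targets of these factors were called in all 4 lists, beside 45.9% of all genes. They include Cdh1, Cldn4, Rab25 and Epcam, which make adhesion and tight junctions or traffic membrane at the apical side. This list also holds the simple epithelium markers counted above. It and the mesenchymal list that follows were chosen with earlier results of these data known, and neither is independent support. Of 10 mesenchymal genes, 2 were called in all 4 lists (Twist1 and Fn1) and 7 in none, among them Zeb1, Zeb2, Snai2 and Cdh2, beside the same 45.9% and 45.2%. Zeb1 and Zeb2, repressors that are known to oppose Grhl2 and the Ovol factors, had no covered base in their windows in any list. Less coverage with dDAVP in both experiments was seen at 11 of the 26 epithelial genes and 12 of the 17 other Ets genes covered in all 4 lists, beside the 54.5% of all covered genes.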

How the data were processed

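H3K27ac peak lists of mpkCCD cells after dDAVP or vehicle were used, 1 list per treatment in each of 2 experiments. Per the submitters' processing notes, BWA, SAMtools and the build mm10 were used on the reads. Per the file headers, MACS 2.1.1.20160309 made the peaks in broad mode from each immunoprecipitated library against its own input, with q limits of 0.01 and 0.1, so replicates were not pooled. The pileup is a signal, the tag coverage of a peak, made by the authors' caller. The fold is the authors' ratio of signal to local background. The deposited -log10 p and -log10 q columns had lost their names and were read from their values and order. All are the authors' own values per peak. The lists were attached to the input records, and peak names in experiment 2 carry the number 3. Peaks on other scaffolds (22 and 5 with dDAVP, 11 and 12 with vehicle) were left out. Depth comes from the headers, and no reads were counted per region here, so no count model was possible and promoter calls have no replicate error.

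Gene spans, starts and promoter sequences came from RefSeq tables of the same build (GRCm38.p6). Calls needed an overlap of 1 bp, and peaks were merged into regions across lists. Percentiles of fold are within a list. The members, the gene lists and the motifs were chosen with earlier results of these data known, and the epithelial and mesenchymal lists are no independent support. All 10 genes are named. The regions named are each promoter region, each gene's widest region and, of the flanking regions in all 4 lists away from other promoters, the one with the highest mean percentile of fold. The Grhl2 region inside the gene that is given with 0 bp in 1 list, and the related genes named as examples, were chosen after their values were seen. The experiment number in the labels pairs the lists. Over 15425 genes, deviations from the group mean (log2 of covered bp plus 1000) correlated at r = 0.734 within an experiment. Exact permutation tests were two-sided and, except with the experiment as a replicate block, unpaired. The code was tested on simulated data. Python 3.11.15, numpy 2.4.6, pandas 2.3.3, scipy 1.17.1 and matplotlib 3.10.9 were used. Alternatives were stricter limits (a minimum of 5 for -log10 q or for fold) and lists of equal size. Other windows, a larger overlap and leaving out each list were also used. Added after seeing the data was leaving out regions at promoters of other genes, except those that also covered the gene's own promoter.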

Additional observations from a re-analysis of the deposited data

How the results depend on the processing

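The 7 promoters called in all 4 lists became 5 under each of 3 settings (a -log10 q limit of 5, a fold limit of 5, equal covered bases), stayed 7 under the other settings of promoter width and list size, and were 7 to 8 when 1 list was left out. The 31 flanking regions called in all 4 lists became 15 with the q limit, 7 with the fold limit, 10 with equal covered bases, 6 with a 50% overlap, 19 with a flank of 25 kb and 52 with 100 kb. Regions called with dDAVP only stayed at 0 except when 1 list was left out (0 to 14). Regions called with vehicle only were 1 with the larger overlap, 1 with 100 kb, and 0 to 17 when 1 list was left out. The 5 genes with less coverage with dDAVP in both experiments became 8 with the q limit, 2 with equal covered bases and 3 with equal numbers of peaks within each experiment, and were 5 to 10 when 1 experiment was left out. The settings not listed gave 4 (25 kb), 7 (100 kb), 6 (the fold limit) and 6 (equal numbers of peaks). All counts under these settings were taken for the 10 genes alone, without the share over all genes under the same settings.

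The summed difference of -33401.5 bp was 1063.5 bp with equal covered bases and -152517 to 85714 bp when 1 list was left out. Without regions at promoters of other genes, chosen after seeing the data, the sum was -31526.5 bp, 5 genes again had less coverage in both experiments, and Ovol2 turned to 61 bp. Other settings also turned single genes. With the q limit, Elf5 gave -129.5 and Grhl3 830.5 bp. With the fold limit, Elf5 gave -25.5, Grhl1 1143.5 and Tfcp2l1 2228 bp. With equal covered bases, Elf3 gave 577, Elf5 -104, Grhl1 1768.5, Grhl3 360 and Tfcp2l1 6699.5 bp. With equal numbers of peaks, Elf5 gave -129.5, Grhl1 2181.5 and Grhl2 1674 bp, and within each experiment Ovol1 gave 308.5 and Ovol2 16.5 bp. With a flank of 100 kb, Elf5 gave -840.5 bp. Leaving out 1 list gave -17986.5 to 10807.5 bp for Elf1, -17492.5 to 10935.5 for Elf3, -405 to 1782 for Elf5, -19266 to 8101 for Ehf, -14961 to 6847 for Grhl1, -33172.5 to 20234.5 for Grhl2, -3510 to 932 for Grhl3, -24859 to 8938 for Tfcp2l1, -14123.5 to 12231.5 for Ovol1 and -6741 to 4905 for Ovol2. The causes were not tested. With the experiment as a replicate block, the exact p was 0.5 or 1 for each gene, where 0.5 is the smallest that 2 pairs can give, and no call changed. Outliers cannot be tested in groups of 2.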
